A study of Mus musculus with 8 samples.

Results

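Aminoacyl-tRNA synthetases, the enzymes that load each amino acid onto its tRNA, were followed between 2 implant surfaces in the mouse cell line RAW264.7, which behaves much like a macrophage. The members were the 41 genes of 26848 in the deposited table whose symbol is 1 letter followed by "ars" (with or without a final digit 1, 2 or 3), together with Eprs, Farsa, Farsb, Tarsl2, Aimp1, Aimp2 and Eef1e1. The rule itself uses gene symbols alone. By name, 21 genes were cytosolic synthetases, 17 were mitochondrial synthetases (names ending in 2, apart from Tarsl2 and Aimp2, which are not mitochondrial) and 3 were scaffold genes without enzyme activity. The cells had been cultured on the implant polymer PEEK (polyetheretherketone) with a nano- and microstructured surface (4 libraries, called structured 1 to 4) or with a smooth surface (4 libraries, called smooth 1 to 4). Both groups were the same cell line, and the labels give neither a further treatment nor a culture time. The labels name biological replicates without saying that they were separate cultures, so p-values measure the spread between these libraries, which may be technical.

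Cells carry a cytosolic and a mitochondrial set of these enzymes, both encoded in the nucleus, because translation runs separately in the cytosol and in mitochondria. Several cytosolic synthetases are held together with the proteins of Aimp1, Aimp2 and Eef1e1 in the multisynthetase complex. When amino acids run short or the endoplasmic reticulum is stressed, the transcription factor ATF4 induces amino acid transporters, biosynthetic enzymes and many, though not all, cytosolic synthetases. The 12 cytosolic members taken here as linked to ATF4, from general knowledge of mouse and human cells, were Aars, Cars, Eprs, Gars, Iars, Lars, Mars1, Nars, Sars, Tars, Wars and Yars. Gars and Kars supply their enzyme to mitochondria as well.

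The 8 libraries held 64479829 to 73098735 deposited counts, whose low values pile up at multiples of 4, so the number of sequenced fragments behind them is not known. Every member passed the filter on low counts, and levels ran from 8.62 CPM (counts scaled to a common library size) for Pars2 to 541 CPM for Nars. Summed levels of 8 macrophage markers were 5938 to 6106 CPM on structured and 5639 to 6021 CPM on smooth PEEK. Transcripts used as markers of other cell types were present too, and which cells they came from was not tested. The 10 neutrophil markers summed to 16.3 to 55.3 CPM in structured libraries, lowest in structured 1, and to 1.68 to 3.27 CPM in smooth libraries, with 5 of the 6 tested called higher. The 13 hepatocyte markers summed to 128 to 430 CPM on structured and 66.2 to 304 CPM on smooth PEEK, highest in structured 4, smooth 1 and structured 3. The 9 skeletal muscle markers summed to 15.2 to 21.3 CPM on structured and 18.4 to 58.5 CPM on smooth PEEK, with 2 of the 9 called lower and 4 of the 9 lower in every structured library. The 5 fibroblast markers summed to 0.682 to 3.52 CPM on structured and 1.77 to 2.65 CPM on smooth PEEK. No marker was at 0 in all libraries, and the part of these transcripts in the results was not tested beyond the fits with the hepatocyte level as a covariate and without those 3 libraries.

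Of the 41 members, 3 rose and 1 fell on structured PEEK (edgeR quasi-likelihood test with Benjamini-Hochberg adjustment over 16006 genes at 0.05). That is 9.76% of the members, against 3.75% of all genes tested. The tyrosyl-tRNA synthetase genes moved in opposite directions: the cytosolic Yars fell and the mitochondrial Yars2 rose. The cytosolic glutaminyl-tRNA synthetase gene Qars rose as well. Changes were small, and in these bulk libraries fewer cells of a type and less RNA per cell cannot be told apart. The members ranged from -0.23 to 0.27 on the log2 scale, with a median of 0.01, against a median of 0.01 over all genes tested. A total of 24 members had positive and 17 had negative log2 fold changes, where 51.2% of all genes were positive. Of the members, 12 reached an unadjusted edgeR p under 0.05 (5 higher, 7 lower), where 18.7% of all genes did. Structured libraries lay all above the smooth ones for 5 members and all below for 3, against 12.2% of all genes in either direction.

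**Figure D1:**
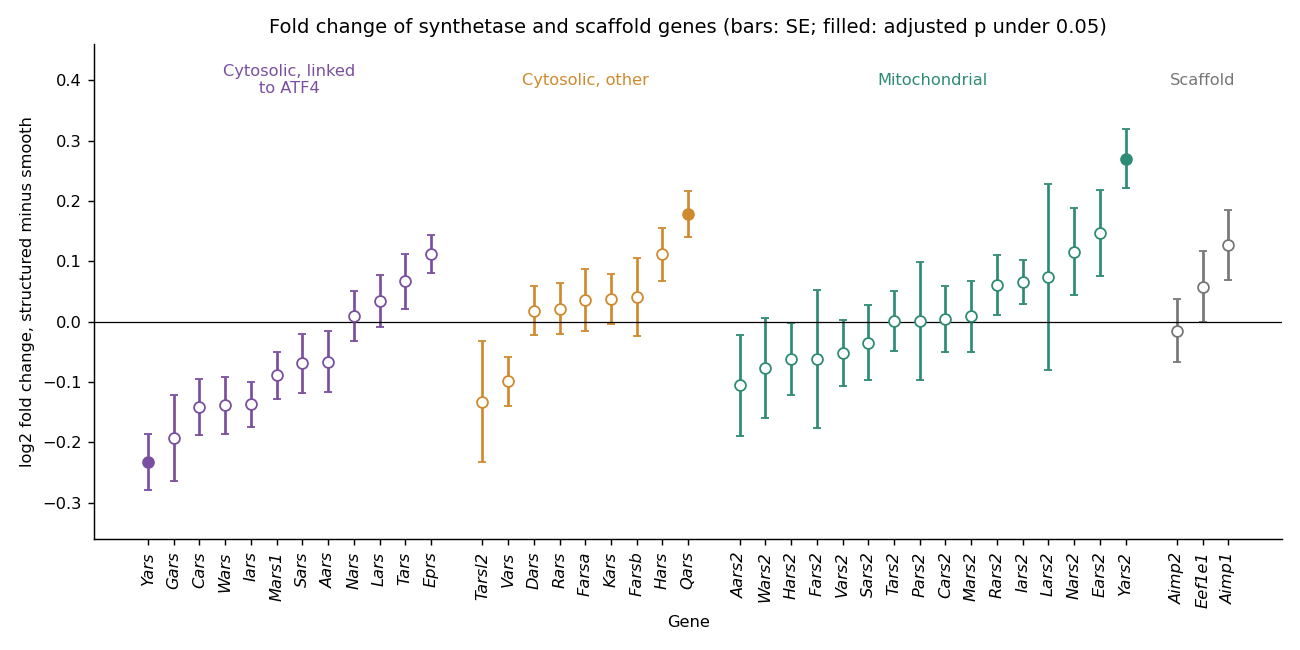
Log2 fold change, structured minus smooth, with its SE for 40 of the 41 genes, grouped as cytosolic and linked to ATF4, other cytosolic, mitochondrial and scaffold. Filled points (Yars, Qars, Yars2) had an adjusted edgeR p under 0.05, and 8 of the 12 ATF4-linked genes lie below 0 against 2 of the 9 other cytosolic genes.

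Yars, which charges tyrosine tRNA in the cytosol, had 168, 163, 189 and 176 CPM in structured 1 to 4, against 202, 205, 205 and 206 CPM in smooth 1 to 4. Every structured library lay below every smooth one, and structured 3 came closest to the smooth level. The means were 174 ± 11.6 CPM on structured and 204 ± 1.56 CPM on smooth PEEK (SD, n = 4 each). The log2 fold change was -0.23 ± 0.05 (SE; edgeR BH-adjusted p = 0.0242) and the fitted level fell by 14.9%. The gene (ENSMUSG00000028811) lies on chromosome 4, 129189760 to 129219607, plus strand. It overlaps C77080 on the opposite strand by 30 bases, and C77080 had a log2 fold change of -0.43 ± 0.07 (edgeR BH-adjusted p = 0.0123), and no source used here says whether the counts used strand. The call ended without smooth 2, smooth 3, smooth 4, structured 1, structured 2 or structured 4 (adjusted p from 0.0576 to 0.0788) and after a trend on GC content and length was taken out (-0.18, adjusted p = 0.0539), and remained without smooth 1 or structured 3. Testing with no filter on low counts (adjusted p = 0.0637) or with limma on log2(FPKM + 0.5) (0.0554) ended it too.

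Yars2, its mitochondrial counterpart, had 41.9, 41.9, 40.0 and 39.2 CPM in structured 1 to 4. In smooth 1 to 4 it had 34.1, 34.6, 31.9 and 34.6 CPM. The groups were far apart relative to their spread, with means of 40.7 ± 1.37 CPM on structured and 33.8 ± 1.27 CPM on smooth PEEK (SD, n = 4 each). The log2 fold change was 0.27 ± 0.05 (SE; edgeR BH-adjusted p = 0.0166), the smallest p of the 41 members. Yars2 (ENSMUSG00000022792) lies on chromosome 16, 16302965 to 16309632. Its call ended without smooth 3 (edgeR BH-adjusted p = 0.0523), without structured 2 (0.0563) and without the 3 libraries highest in hepatocyte markers (0.0724, with a larger log2 fold change of 0.31).

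Qars, which charges glutamine tRNA and belongs to the multisynthetase complex, had 209, 209, 197 and 201 CPM in structured 1 to 4, against 175, 186, 183 and 177 CPM in smooth 1 to 4. The groups did not overlap, and structured 3 was again the structured library nearest to smooth. Its log2 fold change was 0.18 ± 0.04 (SE; edgeR BH-adjusted p = 0.0292), and 0.24 once the GC and length trend was taken out (adjusted p = 0.0134). The call ended without smooth 1, 3 or 4 or without structured 1, 2 or 4 (adjusted p from 0.0557 to 0.103), without the 3 libraries highest in hepatocyte markers (log2 fold change 0.20, adjusted p = 0.0976) and with no filter on low counts (0.18, adjusted p = 0.0547). Qars (ENSMUSG00000032604) lies on chromosome 9, 108507706 to 108515941. No mitochondrial gene of the same amino acid was among the members.

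Several genes of the ATF4-linked set followed in order of p, none past the threshold of the main test. Iars, for isoleucine, had 356, 335, 364 and 350 CPM in structured 1 to 4 and 371, 388, 398 and 389 CPM in smooth 1 to 4. These groups did not overlap (log2 fold change -0.14 ± 0.04; edgeR BH-adjusted p = 0.0689). Eprs, a fusion enzyme for glutamate and proline, had 522, 532, 531 and 526 CPM on structured and 471, 489, 495 and 499 CPM on smooth PEEK. Its groups did not overlap either, but its values lay higher on structured PEEK (0.11 ± 0.03; edgeR BH-adjusted p = 0.0740), and without the GC and length trend it was called higher (0.18; adjusted p = 0.0227). Cars, for cysteine, had 125, 126, 143 and 129 CPM on structured and 143, 148, 143 and 144 CPM on smooth PEEK, and overlapped through structured 3 alone (-0.14 ± 0.05; edgeR BH-adjusted p = 0.116), with -0.07 once the GC and length trend was taken out. Wars, for tryptophan, had 150, 149, 170 and 159 CPM on structured and 168, 172, 181 and 171 CPM on smooth PEEK, and overlapped through structured 3 as well (-0.14 ± 0.05; edgeR BH-adjusted p = 0.130). Without structured 3 both were called lower, with edgeR BH-adjusted p-values of 0.0270 for Cars and 0.0494 for Wars. DESeq2 called Iars, Cars, Wars and Gars lower and Eprs higher in addition to Yars and Qars (adjusted p up to 0.0421). It also called more genes of all kinds, 553 higher and 880 lower of 16006, against 161 and 440 in the main test.

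**Figure D2:**
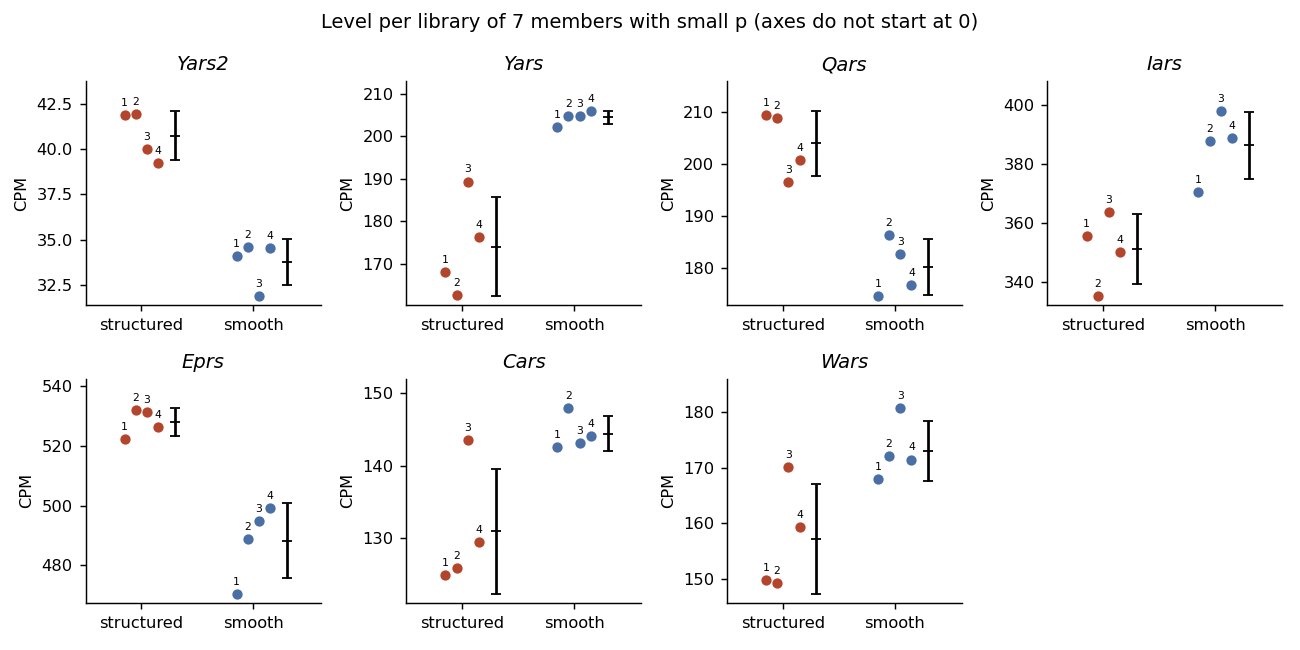
CPM in each library for 7 of the 8 members with the smallest p, structured left of smooth, with the library number above each point and the mean ± SD at its side. Structured and smooth points do not overlap for Yars2, Yars, Qars, Iars and Eprs, and structured 3 reaches the smooth range for Cars and Wars.

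Within the 12 ATF4-linked cytosolic genes, 1 fell (Yars) and none rose, against 2.75% of all genes called lower and 1.01% called higher (440 and 161 genes, or 199 and 237 once the GC and length trend was taken out). By sign, 8 had negative and 4 positive log2 fold changes, with a median of -0.08, which was -0.04 without the GC and length trend. Without the 3 libraries highest in hepatocyte markers (smooth 1, structured 3 and structured 4) it was -0.16. That fit kept only structured 1 and structured 2 on the structured side, the lowest libraries for this list. At an unadjusted edgeR p under 0.05 there were 6 lower (Yars, Iars, Cars, Wars, Gars and Mars1) and 1 higher (Eprs). Over all 16006 genes tested, 18.7% reached it in either direction, with 1303 higher and 1696 lower. Gars, which serves both the cytosol and mitochondria with glycyl-tRNA, had 306, 287, 335 and 310 CPM on structured and 309, 347, 359 and 400 CPM on smooth PEEK. Its smooth libraries differed among themselves as much as the groups did (-0.19 ± 0.07; edgeR BH-adjusted p = 0.165). Mars1, for methionine, had 212, 198, 215 and 204 CPM on structured and 217, 216, 220 and 229 CPM on smooth PEEK, without overlap but with a narrow gap (-0.09 ± 0.04; edgeR BH-adjusted p = 0.239). It overlaps 68 bases of Ddit3, which encodes the stress factor CHOP, on the opposite strand (log2 fold change -0.07 ± 0.09). Sars (-0.07), Aars (-0.07), Nars (0.01), Lars (0.03) and Tars (0.07) all had overlapping groups. Aars turned to 0.03 when the GC and length trend was taken out.

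The ATF4 response element is found near the start of several of these genes, so the sequence around it is printed for those that hold it. RefSeq promoter windows (GRCm38.p6, 250 bases before to 50 bases after each annotated start) were at hand for 31 of the 41 members and were searched on both strands for the 8 letters TGATGNAA, whose reverse complement is TTNCATCA. A match occurred in 5 of the 8 ATF4-linked genes that had a window, in none of the 6 other cytosolic genes, in none of 14 mitochondrial genes and in none of the 3 scaffold genes. Of all genes in that table, 4.51% held one, as did 3.97% of all windows. The ATF4-linked list came from general knowledge, which can itself rest on such elements, so these shares are descriptions alone. Each 30-base stretch below runs 5′ to 3′ on the gene's own strand, with the matching letters in capitals.
Yars: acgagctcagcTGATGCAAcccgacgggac
Gars: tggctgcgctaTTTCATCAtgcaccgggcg
Iars: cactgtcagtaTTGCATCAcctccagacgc
Aars: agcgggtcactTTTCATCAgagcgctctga
Tars: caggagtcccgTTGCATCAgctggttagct

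The stretches lie at chr4:129189895-129189924 (plus strand) for Yars, chr6:55037960-55037989 (plus) for Gars and chr13:49682126-49682155 (plus) for Iars. They lie at chr8:111033840-111033869 (plus) for Aars and at chr15:11399655-11399684 (minus) for Tars. Counted from the RefSeq start as base 1, the match began at base 4 in Yars and at base 8 in Iars, whereas it began at -30 in Gars and at -15 in Tars, upstream of the start. In Aars the match nearest the start, the one printed, began at base 10. The forward letters stood only in Yars among these, and the other sites read as the reverse complement. The 5 genes with a match had log2 fold changes of -0.23 (Yars), -0.19 (Gars), -0.14 (Iars), -0.07 (Aars) and 0.07 (Tars). The ATF4-linked genes whose window held no match had 0.11 (Eprs), -0.07 (Sars) and -0.09 (Mars1). A match describes these letters alone, and binding was not measured.

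The other 9 cytosolic genes were Dars, Farsa, Farsb, Hars, Kars, Qars, Rars, Tarsl2 and Vars. Among them 1 rose (Qars) and none fell, against 3.75% of all genes called in either direction. Log2 fold changes were positive in 7 and negative in 2, where 51.2% of all genes were positive. The median was 0.04, or -0.0050 once the GC and length trend was taken out. Hars, for histidine, had 212, 210, 197 and 213 CPM on structured and 190, 206, 185 and 188 CPM on smooth PEEK, which overlap through structured 3 and smooth 2 (0.11 ± 0.04; edgeR BH-adjusted p = 0.192). Hars and Hars2 overlap head to head by 198 bases on opposite strands, so reads there cannot be assigned without the strand. Vars, for valine, had 292, 285, 315 and 286 CPM on structured and 316, 307, 313 and 324 CPM on smooth PEEK (-0.10 ± 0.04; edgeR BH-adjusted p = 0.207). Without the GC and length trend Vars stood at -0.0050. Dars, for aspartate, had 178, 175, 170 and 176 CPM on structured and 165, 178, 166 and 181 CPM on smooth PEEK, with overlapping groups (0.02 ± 0.04; edgeR BH-adjusted p = 0.881). Rars, Kars and both subunits of the phenylalanine enzyme, Farsa and Farsb, lay between 0.02 and 0.04 with overlapping groups. Tarsl2, a threonine synthetase paralog, was the scarcest cytosolic member at 11.9 to 16.9 CPM (-0.13 ± 0.10; edgeR BH-adjusted p = 0.551).

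Among the 17 mitochondrial genes, 2 rose, Yars2 among them, and none fell, against 1.01% and 2.75% of all genes. Log2 fold changes were positive in 11 and negative in 6, where 51.2% of all genes were positive. The median was 0.00 over a range from -0.11 to 0.27. Only the 2 called genes reached an unadjusted edgeR p under 0.05, where 18.7% of all genes did in either direction. Structured libraries lay all above the smooth ones in 3 of the 17, against 5.19% of all genes, and all below in none, against 7.03%. One of these was Ears2, for glutamate, with 14.8, 15.1, 15.8 and 14.7 CPM on structured and 14.4, 14.0, 13.4 and 12.7 CPM on smooth PEEK (0.15 ± 0.07; edgeR BH-adjusted p = 0.305). Iars2, for isoleucine, had 147, 151, 143 and 147 CPM on structured and 138, 138, 147 and 138 CPM on smooth PEEK, so that smooth 3 alone reached the structured range (0.07 ± 0.04; edgeR BH-adjusted p = 0.368). It overlaps 2034 bases of Rab3gap2 on the opposite strand (-0.15 ± 0.05; edgeR BH-adjusted p = 0.108). The most abundant mitochondrial gene by FPKM, Lars2, was also the most variable. It had 271, 267, 255 and 197 CPM on structured and 184, 218, 325 and 213 CPM on smooth PEEK, with the extremes of all 8 libraries both on smooth PEEK (0.07 ± 0.15; edgeR BH-adjusted p = 0.868). Aars2 (-0.11), Wars2 (-0.08), Hars2, Fars2 (both -0.06), Vars2 (-0.05) and Sars2 (-0.03) were the 6 with negative values, and all had overlapping groups.

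The scaffold genes Aimp1 (0.13 ± 0.06), Eef1e1 (0.06 ± 0.06) and Aimp2 (-0.01 ± 0.05) did not pass the test (edgeR BH-adjusted p from 0.272 to 0.926; none at an unadjusted p under 0.05, and none by DESeq2 or voom). Aimp1 had 80.3, 85.4, 88.4 and 87.6 CPM on structured and 69.7, 83.4, 77.9 and 82.0 CPM on smooth PEEK, with overlap. Aimp2 overlaps 1548 bases of Eif2ak1, a kinase upstream of ATF4, on the opposite strand (-0.01 ± 0.06). Over the whole multisynthetase complex of 8 enzymes and these 3 genes, Qars rose and none fell, against 3.75% of all genes called in either direction. The complex had 8 positive and 3 negative log2 fold changes, with a median of 0.03. Its members had both signs: Qars and Eprs lay above smooth in every structured library, and Iars and Mars1 lay below. Of all genes, 12.2% had groups without overlap in either direction.

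Each library's median deviation from the smooth mean, on the log2 scale, set the groups side by side. For the ATF4-linked cytosolic genes it was -0.12, -0.17, 0.01 and -0.09 in structured 1 to 4, against -0.05, 0.00, 0.01 and 0.05 in smooth 1 to 4. Structured 1, 2 and 4 thus lay below all smooth libraries and structured 3 did not. For the other cytosolic genes it was -0.01, 0.02, 0.04 and 0.08 on structured and -0.04, 0.05, -0.01 and 0.04 on smooth PEEK, with overlap. For the mitochondrial genes it was 0.03, 0.05, 0.08 and -0.00 on structured and -0.00, -0.00, 0.00 and -0.03 on smooth PEEK, so structured 4 lay within the smooth range. Over all genes tested the median deviation was 0.01 at most in any library. The test of a difference between the cytosolic and mitochondrial sets was not run, and these medians are descriptions.

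**Figure D3:**
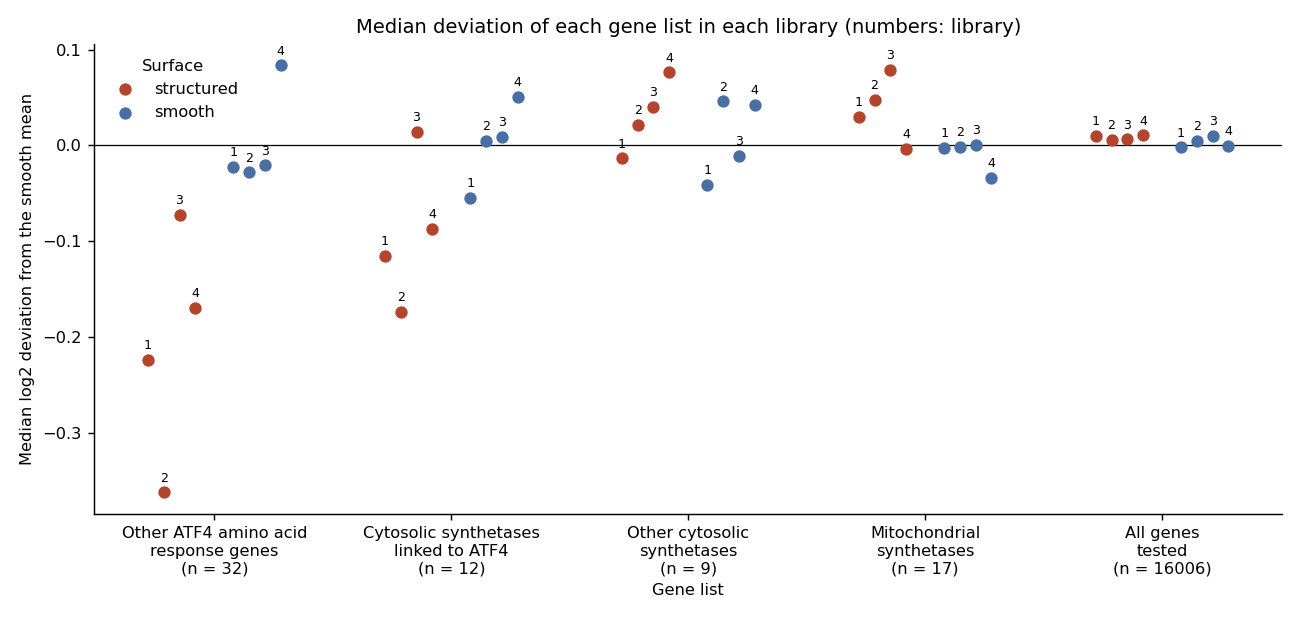
Median over each gene list of the log2 deviation from the smooth mean, 1 point per library, structured left of smooth, with library numbers. Structured 2 is lowest and structured 3 highest among the structured libraries for both ATF4-linked lists, at -0.36 and -0.07 for the 32 other ATF4 genes and at -0.17 and 0.01 for the 12 synthetases.

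The 32 other genes of the ATF4 amino acid response served as the pathway around the synthetases. Of these, 7 fell and none rose, against 2.75% of all genes called lower and 1.01% called higher. Log2 fold changes were negative in 30, where 51.2% of all genes were positive, and the median was -0.20. The list was chosen with earlier results of these data known. The median deviation was -0.22, -0.36, -0.07 and -0.17 in structured 1 to 4, which is the same order of libraries as for the ATF4-linked synthetases. Slc7a1, a carrier of cationic amino acids, fell to 270 ± 13.0 CPM on structured PEEK, against 310 ± 10.8 CPM on smooth PEEK (SD, n = 4 each; log2 fold change -0.20 ± 0.04; edgeR BH-adjusted p = 0.0329). Atf3, a stress-induced transcription factor, fell to 15.3 ± 2.60 CPM, against 22.2 ± 2.61 CPM (-0.54 ± 0.13; edgeR BH-adjusted p = 0.0393). The cystine carrier gene Slc7a11 (-0.43) and the mitochondrial serine enzyme gene Shmt2 (-0.20) were the other 2 of the 4 with the smallest p. All 4 calls ended without smooth 3, smooth 4, structured 2 or structured 4 (edgeR BH-adjusted p from 0.0502 to 0.111). Other libraries mattered too: Slc7a1 lost its call without smooth 1, smooth 2 or structured 1, and Shmt2 without smooth 2 or structured 1. Atf3 lost its call without smooth 2 or structured 3, and Slc7a11 without structured 1. Without the GC and length trend Slc7a1 (-0.10, 0.251) and Shmt2 (-0.16, 0.0629) lost theirs while Atf3 (0.0349) and Slc7a11 (0.0393) kept it. Atf4 itself had 358 ± 16.1 CPM on structured and 373 ± 18.4 CPM on smooth PEEK (-0.06 ± 0.05; edgeR BH-adjusted p = 0.540), and Asns, the asparagine synthetase gene and a classic ATF4 target, had -0.15 ± 0.08 (0.378).

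Neighbouring steps of translation showed no call, but at the 3.75% called over all genes, lists this short hold few calls. Of 17 genes of tRNA handling and cytosolic elongation none passed, and their median was 0.05. At an unadjusted edgeR p under 0.05, 4 were higher and 3 lower, where 18.7% of all genes reached it in either direction. The most abundant, the elongation factor gene Eef1a1, had a log2 fold change of 0.03 ± 0.03. Xpot, which exports tRNA from the nucleus and is in the ATF4 list as well, had -0.01 ± 0.04. Of 19 further genes of mitochondrial translation and mitochondrial transcription none passed either, with 3 higher and 1 lower at an unadjusted p under 0.05 and a median of 0.04, and the most abundant of them, Lrpprc, had -0.08 ± 0.04. Wars, known to be induced by interferon in mouse and human cells, lay below all smooth libraries in 3 of the 4 structured ones. By contrast, 5 of 18 tested interferon response genes rose and none fell (median 0.81), where 1.01% of all genes were called higher. Oas2, with the smallest p of that list, had 20.9 ± 4.02 CPM on structured and 11.5 ± 1.57 CPM on smooth PEEK (SD, n = 4 each). The interferon list had its smallest median deviation, 0.32, in structured 3, against 0.80 to 1.09 in the other structured libraries.

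Per length, cytosolic transcripts were more abundant than mitochondrial ones for all 17 amino acids with both genes, in every library. Levels in this comparison are FPKM, which scale a gene's reads to its length and to the library's depth, averaged over the 8 libraries. The median cytosolic gene had 50.9 FPKM, and levels ran from 111 FPKM for Nars and 99.6 FPKM for Gars to 19.6 FPKM for Cars, with Tarsl2 far lower at 2.00 FPKM. The median mitochondrial gene had 5.88 FPKM, from 20.4 FPKM for Lars2 and 15.1 FPKM for Iars2 to 1.94 FPKM for Mars2. The scaffold genes had 37.7 FPKM (Aimp2), 25.6 FPKM (Eef1e1) and 13.6 FPKM (Aimp1). Nars, for asparagine, had 508, 489, 541 and 537 CPM in structured 1 to 4, against 495, 510, 521 and 536 CPM in smooth 1 to 4. The most abundant member thus differed between the surfaces by less than its error (log2 fold change 0.01 ± 0.04; edgeR BH-adjusted p = 0.938).

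**Figure D4:**
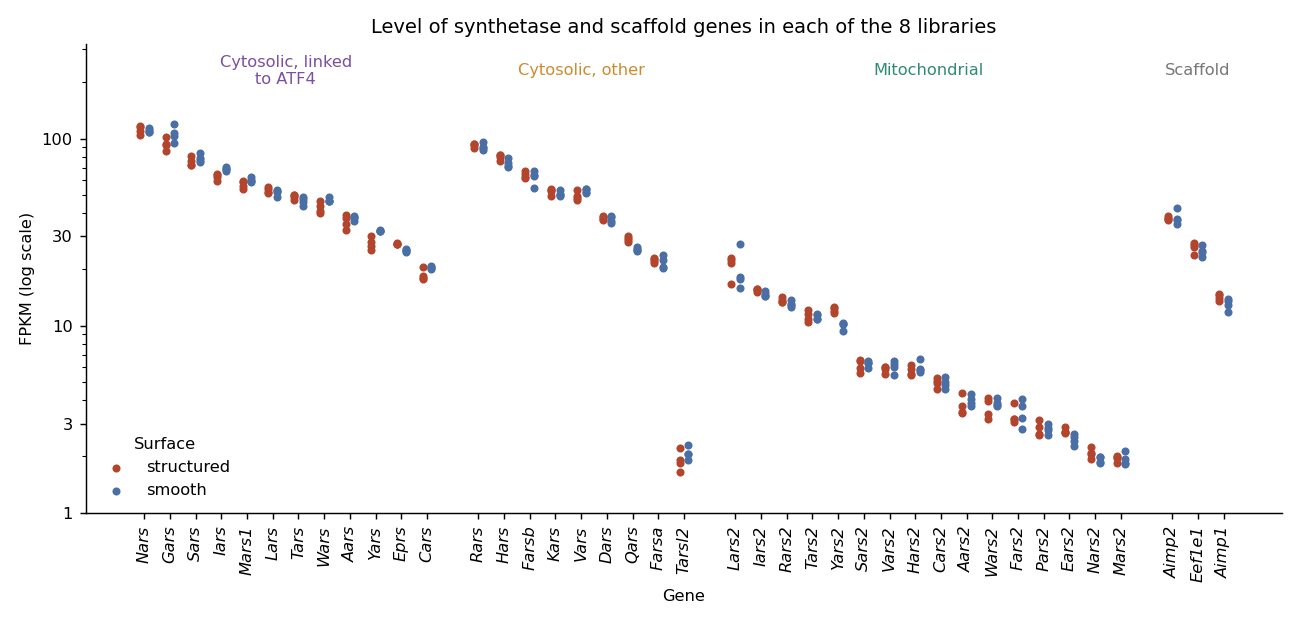
FPKM on a log scale of 40 of the 41 genes in each of the 8 libraries, structured left of smooth, ordered by level within each group. Means over the 8 libraries lie mostly between 19.6 and 111 FPKM for cytosolic genes, with Tarsl2 at 2.00 FPKM among them. For mitochondrial genes the means lie between 1.94 and 20.4 FPKM, and points of single libraries can lie outside these ranges.

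The ratio of the cytosolic to the mitochondrial transcript was then taken per amino acid within each library, as log2 of the FPKM ratio, which cancels any scaling of a whole library. For tyrosine it was 1.09, 1.04, 1.33 and 1.25 in structured 1 to 4, against 1.65, 1.65, 1.77 and 1.66 in smooth 1 to 4. Yars thus exceeded Yars2 by 2.26-fold on structured and 3.21-fold on smooth PEEK, the widest shift of the 17 pairs (difference -0.51 on the log2 scale). This ratio restates the opposite calls of Yars and Yars2 in the same libraries and is not separate from them. For isoleucine the ratio was 2.03, 1.91, 2.10 and 2.01 on structured and 2.18, 2.24, 2.19 and 2.24 on smooth PEEK, without overlap. Overlap between the surfaces was seen in 14 pairs, and no pair had all structured libraries above the smooth ones. Of all single genes, 12.2% had groups without overlap in either direction, and no such share was taken over other gene pairs. The difference was negative in 12 pairs and positive in 5, with a median of -0.05, and the most positive value was 0.17 for histidine. Eprs entered both the glutamate and the proline pair, so these share a gene.

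**Figure D5:**
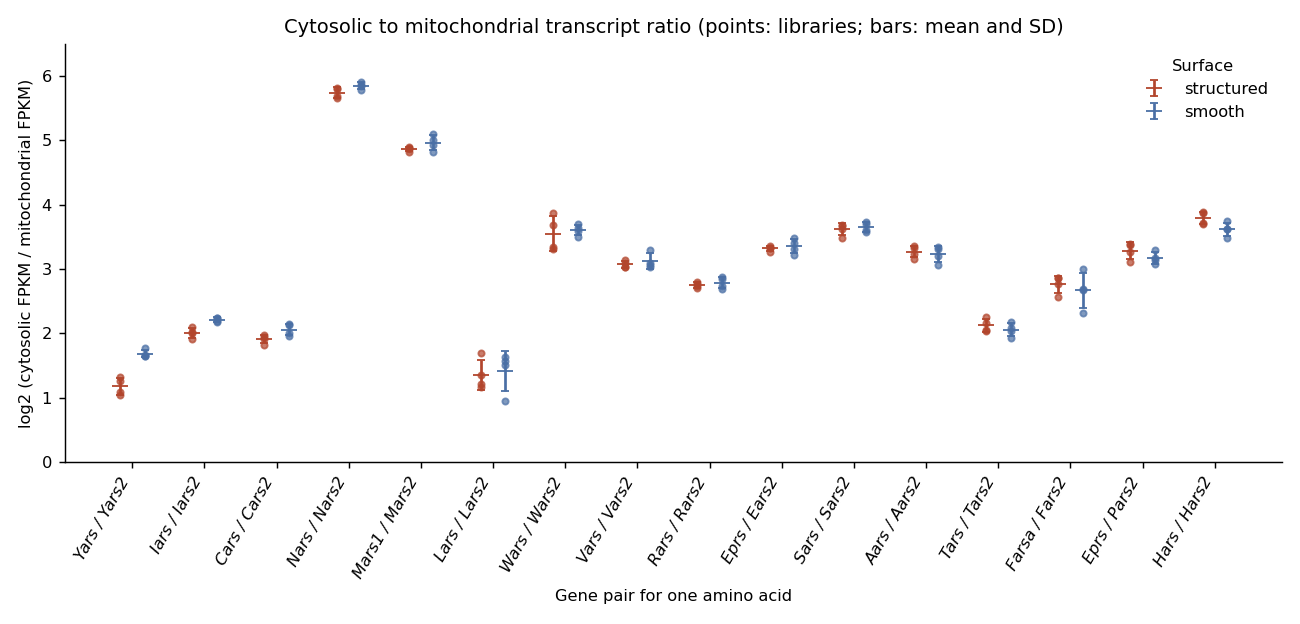
Log2 ratio of cytosolic to mitochondrial FPKM for 16 of the 17 gene pairs, structured left of smooth, with points for libraries and bars for mean and SD, ordered by the difference between surfaces. The ratio is lower in every structured library for Yars and Yars2 and for Iars and Iars2, with means of 1.18 on structured and 1.68 on smooth PEEK for the tyrosine pair.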

How the data were processed

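For 8 libraries the authors deposited expected (estimated) counts and FPKM by gene in 1 table, per the file headers. These deposited expected counts are whole numbers with a surplus at multiples of 4 (8018 entries of 4, against 3344 of 3 and 2180 of 5). The authors' FPKM values scale each gene to its length and to sequencing depth. The submitters' processing notes name cutadapt 1.9 and HISAT2 2.2.1. No source used here names the counter, whether it used strand, the annotation or the build. Of 41 members, 32 had coordinates identical to GENCODE M21 (GRCm38), and positions are printed as deposited.

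Libraries are numbered by their library names. Genes passed filterByExpr at a minimum count of 10 (16006 tested, 10842 not). TMM factors scaled the libraries, and edgeR 4.0.16 (R 4.3.3) gave the two-sided quasi-likelihood p, structured minus smooth, adjusted by Benjamini-Hochberg over all genes at 0.05. The SE is the log2 fold change divided by the square root of F. CPM uses TMM-scaled library sizes. The edgeR step was tested on simulated counts.

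The members and lists were chosen with earlier results of these data known. The named results of 1 member are not reported here, but counts and medians include it. All members are otherwise accounted for, and values in every library were due for those past the threshold, those with the smallest p up to 8 in all, and the most abundant cytosolic (Nars) and mitochondrial gene (Lars2). Others were added after their values were seen. From each further list the rule took up to 4 called genes by p, or else its most abundant gene, and Atf4, Asns and Xpot were added afterwards. The interferon list departs from this rule, since only Oas2, with its smallest p, is named. Alternatives were DESeq2 1.42.0, voom and limma 3.58.1 on log2(FPKM + 0.5, 0.1 or 1), other filters and scalings, a replicate block, counts divided by 4, taking out a trend on GC content and exon length (values for 99.9% of the genes tested), a hepatocyte covariate and each library left out. Leaving out 3 libraries together was chosen after seeing the data. Figures were drawn with matplotlib 3.10.9.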

Additional observations from a re-analysis of the deposited data

Results flagged for a closer look

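In 4 of 82 groups of 4 libraries (41 genes on 2 surfaces), 1 library stood far from the other 3 by Dixon's test at the 95% level, where chance alone gives about 1 in 20. Hars was at 197 CPM in structured 3, against 210 to 213 CPM in the other structured libraries. Rars was at 305 CPM in structured 1, against 319 to 321 CPM. Iars2 was at 147 CPM in smooth 3, against 138 CPM in the other smooth libraries. Wars2 was at 26.2 CPM in smooth 4, against 23.8 to 24.1 CPM.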

How the results depend on the processing

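Small fold changes near the threshold limit these results. Over the 41 members and 22 alternatives, 854 outcomes kept the side of the threshold, 40 lost a call and 8 gained one. Most of the 854 came from members not called in the main test, whereas all 40 losses fell on the called ones. Yars2 kept its call in 19, Yars in 11 and Qars in 13 of the 22 alternatives. No called value changed sign. Genes called higher and lower numbered 161 and 440 in the main test, 47 and 142 without a filter, 553 and 880 with DESeq2, 67 and 124, 89 and 153, and 65 and 122 with limma at pseudocounts of 0.5, 0.1 and 1, 62 and 124 without the 3 libraries highest in hepatocyte markers, and from 21 to 170 and from 67 to 427 with 1 library left out. Lower calls were 263 with the FPKM filter, 199 with the GC and length trend removed (237 higher) and 210 with the hepatocyte covariate. Cytosolic synthetases called numbered 2 in the main test, 0 without a filter, 7 with DESeq2, 1 with limma at each of the 3 pseudocounts, 1 without the 3 libraries, and 0 to 4 with 1 library left out. Mitochondrial ones called numbered 2 in the main test, 1 without a filter, 1 with voom, 1 with each limma fit, 1 with the GC and length trend removed, 1 with the covariate, 0 without the 3 libraries, and 0 to 2 with 1 library left out. Fewer libraries enter those last fits; for the other changes the cause was not tested. The cytosolic median was 0.01, and -0.0688 without the 3 libraries (-0.16 for the ATF4-linked genes, against -0.08). The mitochondrial median was 0.0043, 0.0425 with the trend removed, 0.0361 without the 3 libraries and -0.0167 to 0.0367 with 1 library left out. With the library number as a replicate block, 1 cytosolic and 1 mitochondrial gene were called (Yars and Yars2), and Qars had an edgeR adjusted p of 0.0506. Deviations of same-numbered libraries from their group means had correlations of -0.06, 0.08, -0.00 and -0.16. Differently numbered pairs ran from -0.21 to 0.20, so these values cannot tell whether same-numbered libraries shared a culture batch.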
